A study of Mus musculus with 18 samples.

Results

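The genes described here are those of the MHC class II pathway of the mouse: H2-Aa, H2-Ab1 and H2-Eb1, which encode the chains of the peptide-presenting molecules, H2-DMa, H2-DMb1, H2-DMb2, H2-Oa and H2-Ob, which encode the chaperones H2-M and H2-O, Cd74, which encodes the invariant chain, and Ciita, which encodes the transactivator of the pathway. They were chosen by gene symbol, and every probe carrying one of these symbols in the deposited probe table was included, which gave 17 of 45281 probes and 10 of 31165 genes. Of these, 16 probes of 9 genes were detected (p-value under 0.05) by at least 4 of 18 arrays and so were among the 21938 probes tested. The probe of H2-Ob did not pass.

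Class II molecules display peptides from the endocytic pathway to CD4+ T cells. They assemble with the invariant chain, which blocks the groove until proteases degrade it, and H2-M then exchanges the remaining fragment for antigenic peptide, a step that H2-O restrains. Dendritic cells, macrophages and B cells carry class II constitutively, whereas intestinal epithelium acquires it mainly under interferon-gamma, through Ciita acting on factors already bound to class II promoters.

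The RNA came from colon epithelial cells (CECs), which the study's methods describe as sorted by flow cytometry for EpCAM and against CD45. The 4 groups were untreated wild-type mice (Naive_WT), wild-type mice given 2% dextran sulphate sodium (DSS), which injures the colon lining and causes colitis (DSS_WT), untreated Mbd2KO mice, in which no cell has Mbd2, a protein that binds methylated CpG (Naive_KO), and such knockout mice given DSS (DSS_KO). Per the study's methods the knockout was on a C57BL/6 background, DSS was given in drinking water for several days, mice were adult and matched for age and sex, and co-housing with littermate controls was used where it was possible. Each group held 4 samples, which the labels number 9 to 12 in Naive_WT, 1 to 4 in DSS_WT, 13 to 16 in Naive_KO and 5 to 8 in DSS_KO, and a sample may pool several mice. Because the knockout was global, CECs lacking Mbd2 developed among other cells lacking it. The study asked whether Mbd2 controls what CECs express in colitis.

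The Mbd2 probe was detected on 0 of 18 arrays (lowest detection p-value 0.151), so the genotype labels were taken as given. Between 18851 and 20618 probes were detected per array. All 13 epithelial marker genes, Epcam and Cdh1 among them, were detected on every array, and none was called between genotypes by limma. Arrays 4R and 5R were averaged with arrays 4 and 5, because each pair differed less (SD of the log2 difference 0.194 and 0.236) than any other pair of its group (0.334 to 0.482 in DSS_WT and 0.287 to 0.419 in DSS_KO). All levels below are log2 normalized intensities, in which a level near 4.5 is background, and levels of different probes are not comparable with each other.

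The promoters are shown first because Ciita acts on class II genes through a conserved pair of elements upstream of the start, the X box, bound by the RFX complex and CREB, and the Y box, bound by NF-Y. RefSeq promoter sequences (GRCm38.p6) were held for 7 of the 10 genes, and stretches of 60 upstream bases are given for the 6 with a Y-box match, each ending 5 bases past the Y box. Capitals mark matches to AACNNATGATG, letters of the X box, and to TGATTGG, letters of the Y box, both searched on both strands in the 250 bases before the start. The motif letters were chosen after these promoters had been read.
H2-DMb1, chr17:34153080-34153139, + strand: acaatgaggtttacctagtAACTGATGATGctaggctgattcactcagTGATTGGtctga
H2-DMb2, chr17:34145109-34145168, + strand: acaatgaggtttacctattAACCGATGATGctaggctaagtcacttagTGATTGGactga
H2-Eb1, chr17:34305758-34305817, + strand: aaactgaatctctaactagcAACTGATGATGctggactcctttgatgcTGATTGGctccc
H2-Aa, chr17:34287862-34287921, - strand: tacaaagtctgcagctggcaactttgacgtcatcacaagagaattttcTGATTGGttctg
H2-Ob, chr17:34238798-34238857, + strand: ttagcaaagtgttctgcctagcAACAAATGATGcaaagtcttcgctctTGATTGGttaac
H2-Oa, chr17:34092286-34092345, + strand: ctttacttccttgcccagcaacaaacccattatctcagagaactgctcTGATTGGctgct

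The X-box letters matched in H2-DMb1, H2-DMb2, H2-Eb1 and H2-Ob, with 18, 18, 17 and 15 bases between the X and Y matches. Over all 32851 RefSeq promoters, 0.119% held the X-box letters and 7.23% the Y-box letters. Only 4 promoters (0.0122%) held both on 1 strand in this order at a similar spacing, and these are the 4 just named. Since the letters were chosen after reading these promoters, that count is not a test. H2-Aa and H2-Oa held the Y-box letters without these X-box letters, and H2-Aa alone of the 7 genes held TGACGTCA, the cAMP response element that CREB binds (lower case in its stretch, and in 1.55% of all promoters). This motif too was chosen after reading, and a match or its absence in this window is a description of the letters only. H2-Ob and H2-Oa, whose promoters are shown as the last 2, were the members near background in every group, whereas the first 4 were called between genotypes. H2-DMa, the other gene with a promoter sequence, held neither the X-box nor the Y-box letters in this window and was also called between genotypes.

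Class II transcripts were far more abundant in CECs lacking Mbd2, with DSS and without it. A probe was called when its limma adjusted p (Benjamini-Hochberg over all tested probes) was under 0.01 and its log2 difference was 1 or more. Between DSS_KO and DSS_WT, 13 of the 16 tested member probes, of 8 genes, were called higher and 0 lower, where 0.501% of all tested probes were called higher. Between Naive_KO and Naive_WT the same 13 probes were called higher and 0 lower, against 0.401% of all tested probes. The called differences spanned 2.34 to 3.64 (5.05-fold to 12.5-fold) with DSS and 2.71 to 4.11 (6.54-fold to 17.3-fold) without it. The median over the 16 probes was 2.50 with DSS and 3.45 without DSS, and the median over all tested probes was 0.00 in both. Groups did not overlap at 14 of the 16 probes with DSS (6.43% of all tested probes were higher without overlap) and at 13 without it (6.71%). Because these are bulk samples, more cells carrying the transcripts and more transcript per cell cannot be told apart.

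**Figure D1:**
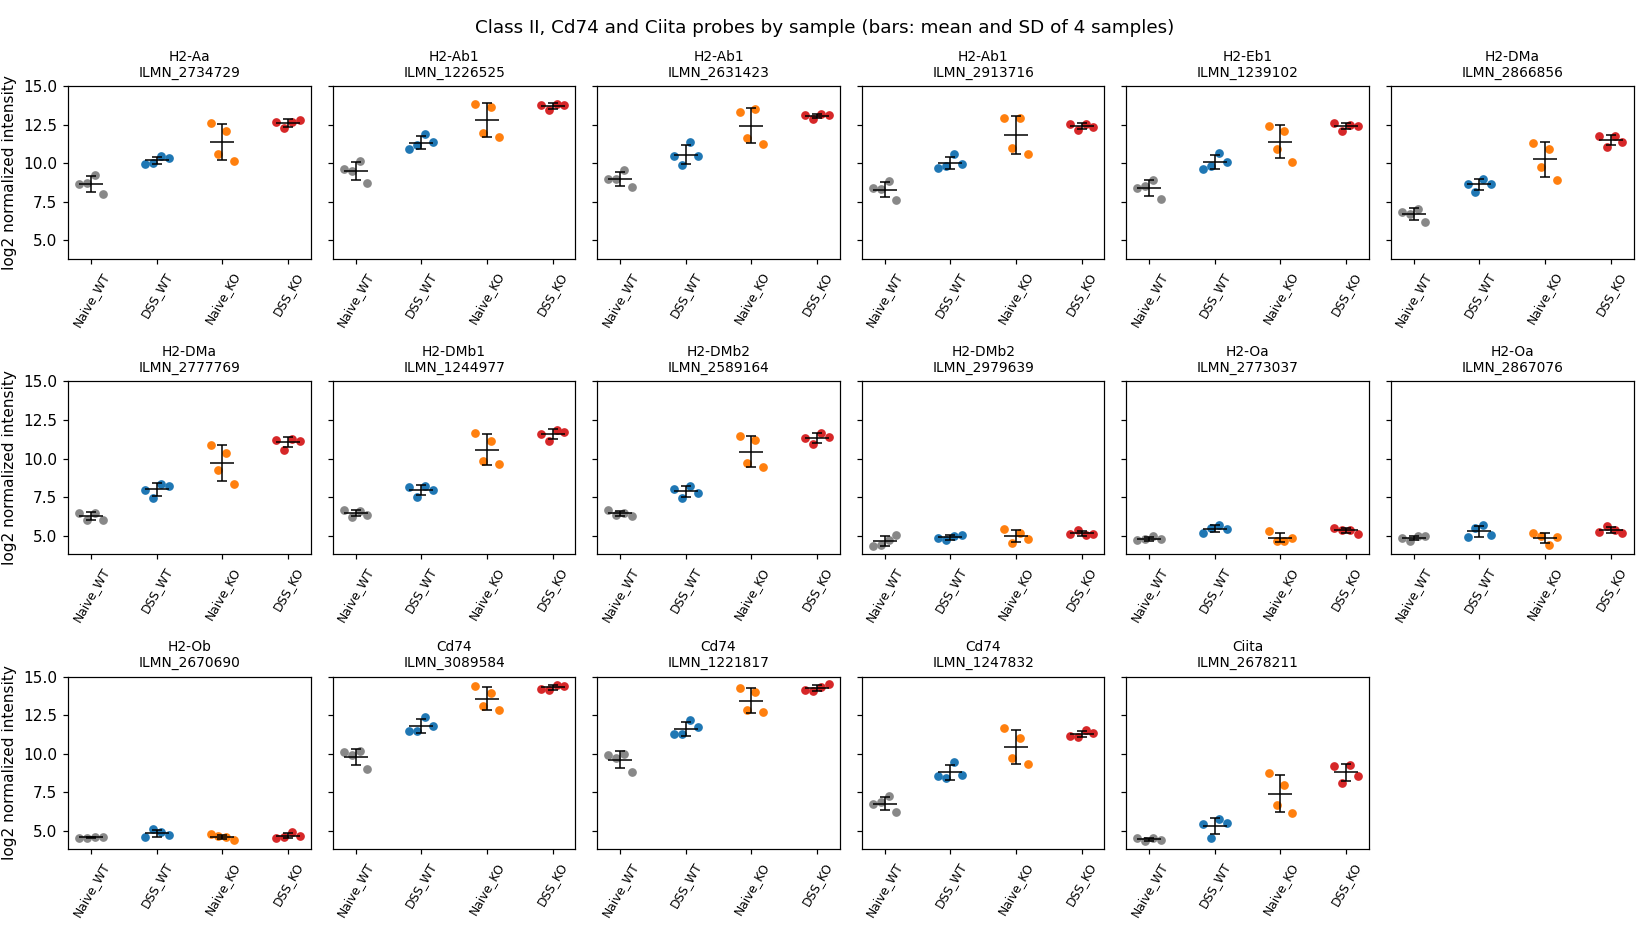
Log2 normalized intensity of the 17 probes in each of the 16 samples, by group in the order Naive_WT, DSS_WT, Naive_KO and DSS_KO, with 1 panel per probe. Points are samples and bars the mean and SD of 4 samples. Group means climb in this order in 14 of the 16 tested panels, and the panels of H2-Oa, H2-Ob and the dimmer H2-DMb2 probe stay near background.

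The peptide-presenting molecule is a pair of chains, of which H2-Aa and H2-Ab1 form I-A. H2-Aa, the alpha chain (ILMN_2734729, chromosome 17, 34420742 to 34420791 in the file's coordinates), had levels of 8.67, 8.73, 9.26 and 8.00 in Naive_WT, 9.96, 10.01, 10.48 and 10.33 in DSS_WT, 12.60, 10.60, 12.11 and 10.18 in Naive_KO, and 12.69, 12.28, 12.70 and 12.82 in DSS_KO. Every Mbd2KO sample lay above every WT sample of the same treatment. The difference was 2.43 (SE 0.40, limma adjusted p 0.00334) with DSS and 2.71 (SE 0.40, adjusted p 0.00141) without DSS.

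H2-Ab1, the beta chain of I-A, was read by 3 probes in different parts of the transcript. The brightest (ILMN_1226525, chromosome 17, 34404300 to 34404349) had 9.67, 9.51, 10.13 and 8.75 in Naive_WT, 10.94, 11.18, 11.93 and 11.37 in DSS_WT, 13.85, 11.99, 13.65 and 11.71 in Naive_KO, and 13.77, 13.47, 13.85 and 13.77 in DSS_KO. The other two followed the same course over the 16 samples (Pearson r 0.989 and 0.995 with the brightest). ILMN_2631423 (34400356 to 34400405) read 9.00, 9.00, 9.58 and 8.45 in Naive_WT, 10.49, 9.91, 11.41 and 10.48 in DSS_WT, 13.33, 11.63, 13.55 and 11.29 in Naive_KO, and 13.12, 12.86, 13.17 and 13.13 in DSS_KO. The levels at ILMN_2913716 (33876128 to 33876177 in the file, away from the other two) were 8.41, 8.35, 8.83 and 7.62 in Naive_WT, 9.71, 9.84, 10.62 and 9.98 in DSS_WT, 12.94, 11.01, 12.92 and 10.61 in Naive_KO, and 12.58, 12.15, 12.55 and 12.35 in DSS_KO. At all 3 probes neither treatment gave overlapping genotypes. The differences were 2.36, 2.50 and 2.37 with DSS and 3.29, 3.44 and 3.57 without it (SE 0.41 to 0.43, limma adjusted p at most 0.00505 with DSS).

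H2-Eb1 encodes the beta chain of the second class II molecule, I-E, whose alpha chain gene H2-Ea is silent in C57BL/6 mice. H2-Eb1 (ILMN_1239102, chromosome 17, 34451133 to 34451182) had levels of 8.44, 8.53, 8.92 and 7.70 in Naive_WT, 9.65, 9.85, 10.70 and 10.11 in DSS_WT, 12.44, 10.93, 12.10 and 10.11 in Naive_KO, and 12.62, 12.12, 12.48 and 12.44 in DSS_KO. Its difference between genotypes was 2.34 (SE 0.39, limma adjusted p 0.00355) with DSS and 3.00 (SE 0.39, adjusted p 0.000518) without DSS, again with no overlap between genotypes. The H2-Ea probe was detected on 0 of 18 arrays, so the I-E alpha chain stayed at background while H2-Eb1 was called.

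Cd74, the invariant chain, held the brightest of all member signals relative to the array range. Its levels at ILMN_3089584 (chromosome 18, 60971979 to 60972028) were 10.09, 9.93, 10.18 and 9.03 in Naive_WT, 11.47, 11.45, 12.41 and 11.81 in DSS_WT, 14.41, 13.07, 13.95 and 12.82 in Naive_KO, and 14.20, 14.13, 14.47 and 14.40 in DSS_KO. The genotypes were clear of each other in both treatments. The second bright probe, ILMN_1221817 (60971928 to 60971977), read 9.92, 9.69, 10.00 and 8.80 in Naive_WT, 11.25, 11.28, 12.16 and 11.73 in DSS_WT, 14.27, 12.85, 14.00 and 12.68 in Naive_KO, and 14.16, 14.09, 14.34 and 14.50 in DSS_KO. A dimmer probe upstream of both, ILMN_1247832 (60971004 to 60971053), read 6.71, 6.87, 7.25 and 6.24 in Naive_WT, 8.58, 8.45, 9.49 and 8.63 in DSS_WT, 11.70, 9.71, 11.05 and 9.36 in Naive_KO, and 11.14, 11.12, 11.53 and 11.37 in DSS_KO. The 3 probes gave nearly equal differences, 2.52, 2.67 and 2.50 with DSS (SE 0.32 to 0.39) and 3.75, 3.85 and 3.69 without DSS (limma adjusted p at most 0.00245 in either).

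Cd74 was also the member nearest to the top of the scale. Its 2 bright probes reached 51.5% to 78.3% of the brightest probe on the array in DSS_KO, where they ranked 63 to 150 among 45281 probes, compared with 1.54% to 3.77% in Naive_WT. The third probe, at 11.29 in DSS_KO, stood further from the top, and its log2 difference between genotypes with DSS was 2.50, beside 2.52 and 2.67 at the 2 bright probes. Whether the brightest signals were compressed was not tested.

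**Figure D2:**
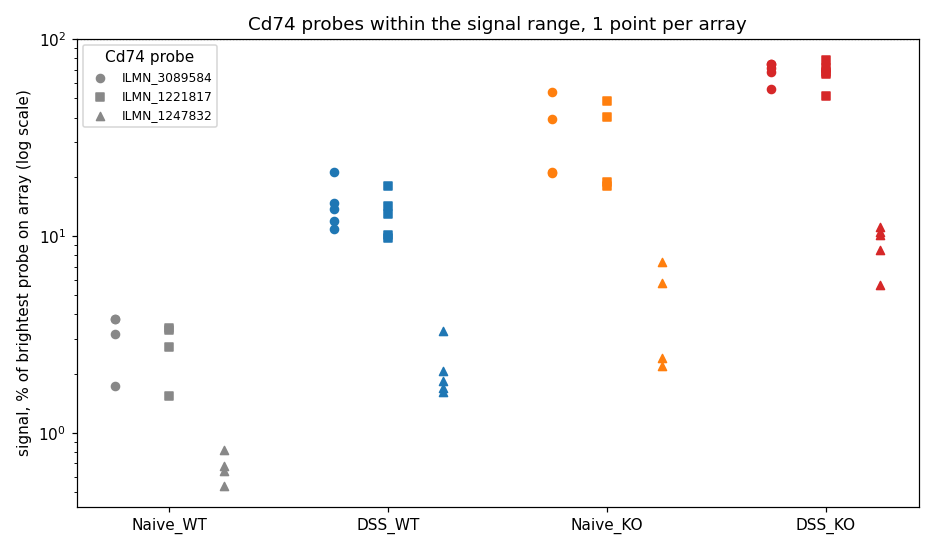
Signal of the 3 Cd74 probes as a percentage of the brightest probe on the same array (log scale), with 1 point per array and the 4 groups side by side. In DSS_KO the 2 bright probes lie between 51.5% and 78.3% and the third lies lower, and all 3 are lowest in Naive_WT and brightest, on average, in DSS_KO.

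H2-M is made of an alpha chain, H2-DMa, and a beta chain, H2-DMb1 or H2-DMb2. H2-DMa at its brighter probe, ILMN_2866856 (chromosome 17, 34274483 to 34274856, across a splice junction), had 6.87, 6.73, 7.05 and 6.19 in Naive_WT, 8.69, 8.18, 9.01 and 8.67 in DSS_WT, 11.34, 9.79, 10.96 and 8.91 in Naive_KO, and 11.78, 11.09, 11.77 and 11.37 in DSS_KO. The other H2-DMa probe, ILMN_2777769, which has no position in the file, had 6.47, 6.04, 6.48 and 6.01 in Naive_WT, 7.95, 7.46, 8.37 and 8.20 in DSS_WT, 10.91, 9.26, 10.35 and 8.33 in Naive_KO, and 11.20, 10.58, 11.29 and 11.12 in DSS_KO. The 2 probes correlated at r 0.997 over the 16 samples. H2-DMa was higher in Mbd2KO CECs by 2.87 and 3.05 with DSS and by 3.54 and 3.46 without it (SE 0.39 at each, limma adjusted p at most 0.00132 with DSS), with no overlap.

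H2-DMb1, the partner of H2-DMa, differed strongly between genotypes in both treatments. Its probe (ILMN_1244977, chromosome 17, 34292789 to 34294205, across a splice junction) read 6.68, 6.24, 6.61 and 6.35 in Naive_WT, 8.13, 7.50, 8.23 and 7.95 in DSS_WT, 11.68, 9.84, 11.13 and 9.68 in Naive_KO, and 11.58, 11.17, 11.87 and 11.75 in DSS_KO. Mbd2KO samples exceeded WT samples by 3.64 with DSS (SE 0.34, limma adjusted p 6.94e-05) and by 4.11 without DSS (SE 0.34, adjusted p 1.18e-05). In Naive_WT the level was 6.47 ± 0.21 (SD, n = 4), and the lowest Naive_KO sample was at 9.68.

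H2-DMb2 had 2 probes that disagreed. The bright one, ILMN_2589164, which has no position in the file, read 6.68, 6.34, 6.50 and 6.30 in Naive_WT, 8.03, 7.45, 8.22 and 7.76 in DSS_WT, 11.44, 9.71, 11.19 and 9.47 in Naive_KO, and 11.33, 10.95, 11.67 and 11.38 in DSS_KO, and its differences were 3.47 with DSS and 4.00 without DSS (SE 0.34, limma adjusted p 0.000117 and 1.18e-05). The other, ILMN_2979639 (chromosome 17, 34284630 to 34284679), was detected on 10 of 18 arrays and read 4.34, 4.42, 4.71 and 5.06 in Naive_WT, 4.83, 4.71, 4.98 and 5.04 in DSS_WT, 5.42, 4.51, 5.19 and 4.78 in Naive_KO, and 5.09, 5.38, 5.06 and 5.10 in DSS_KO. It differed between genotypes by 0.27 with DSS (95% interval -0.13 to 0.66, limma adjusted p 0.436) and by 0.34 without DSS (-0.05 to 0.74, adjusted p 0.291). It was not called in any comparison, and its r with the bright probe was 0.66. The 2 probes cover different bases of the transcript, 351 to 400 for the dim one and 553 to 602 for the bright one, and their sequences are printed because the reading depends on which is used.
ILMN_2979639, dim: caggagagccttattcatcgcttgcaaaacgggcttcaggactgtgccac
ILMN_2589164, bright: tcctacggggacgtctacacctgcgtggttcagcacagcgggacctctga

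No other probe on the array shared a run of 18 or more bases with either H2-DMb2 probe or with the H2-DMb1 probe. H2-DMb1 and H2-DMb2 are near-identical neighbours, and whether the probe of one reads the transcript of the other was not tested, so which of the pair differed is uncertain.

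H2-O, which restrains H2-M and is known mainly from B cells and dendritic cells, behaved differently. H2-Oa, its alpha chain, read 4.72, 4.76, 5.00 and 4.77 in Naive_WT, 5.20, 5.48, 5.71 and 5.45 in DSS_WT, 5.29, 4.64, 4.68 and 4.84 in Naive_KO, and 5.51, 5.36, 5.39 and 5.11 in DSS_KO at ILMN_2773037, which has no position in the file. Its other probe, ILMN_2867076 (chromosome 17, 34230996 to 34231045), read 4.82, 4.67, 4.97 and 4.98 in Naive_WT, 4.90, 5.53, 5.67 and 5.03 in DSS_WT, 5.16, 4.96, 4.41 and 4.89 in Naive_KO, and 5.24, 5.65, 5.34 and 5.20 in DSS_KO. Each was detected on 12 of 18 arrays, and the genotypes overlapped in both treatments. The differences were -0.12 and 0.08 with DSS and 0.05 and -0.01 without DSS, with 95% intervals that stayed within -0.43 and 0.46 (lowest limma adjusted p 0.704).

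Both H2-Oa probes instead had larger values with DSS than without it, and neither was called. In WT the difference was 0.65 (SE 0.15, limma adjusted p 0.0119) at ILMN_2773037 and 0.42 (SE 0.18, adjusted p 0.153) at the other, which is below the limit of 1 used for a call. H2-Ob, the beta chain (ILMN_2670690, chromosome 17, 34379538 to 34379587), read 4.55, 4.56, 4.61 and 4.61 in Naive_WT, 4.58, 5.14, 4.91 and 4.73 in DSS_WT, 4.78, 4.65, 4.57 and 4.40 in Naive_KO, and 4.52, 4.63, 4.91 and 4.64 in DSS_KO. It was detected on 2 of 18 arrays, both of DSS_WT, and was not tested.

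Ciita, the transactivator, ran from background to a clear signal. Its probe (ILMN_2678211, chromosome 16, 10527580 to 10527629) read 4.53, 4.36, 4.53 and 4.40 in Naive_WT, 5.44, 4.55, 5.78 and 5.48 in DSS_WT, 8.77, 6.69, 7.99 and 6.17 in Naive_KO, and 9.22, 8.08, 9.29 and 8.55 in DSS_KO. It was detected on 0 of 4 Naive_WT arrays, 4 of 5 DSS_WT arrays, and all 4 Naive_KO and 5 DSS_KO arrays, and the genotypes did not overlap in either treatment. With DSS the difference was 3.47 (SE 0.43, limma adjusted p 0.000760). Without DSS the fitted difference was 2.95 (SE 0.43, limma adjusted p 0.00131). Since Naive_WT has only a bound, Ciita in Naive_KO was also measured against a floor, the lowest detected level on each Naive_WT array. That floor had a mean of 4.90, which is itself near background. The mean Naive_KO level was 5.67-fold above the floor, a point estimate without an interval. Without background correction Ciita at ILMN_2678211 differed by 1.97 with DSS, where it was called, and by 1.32 in untreated mice, where it was not called, nor was it called in a fit to the 2 untreated groups alone.

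**Figure D3:**
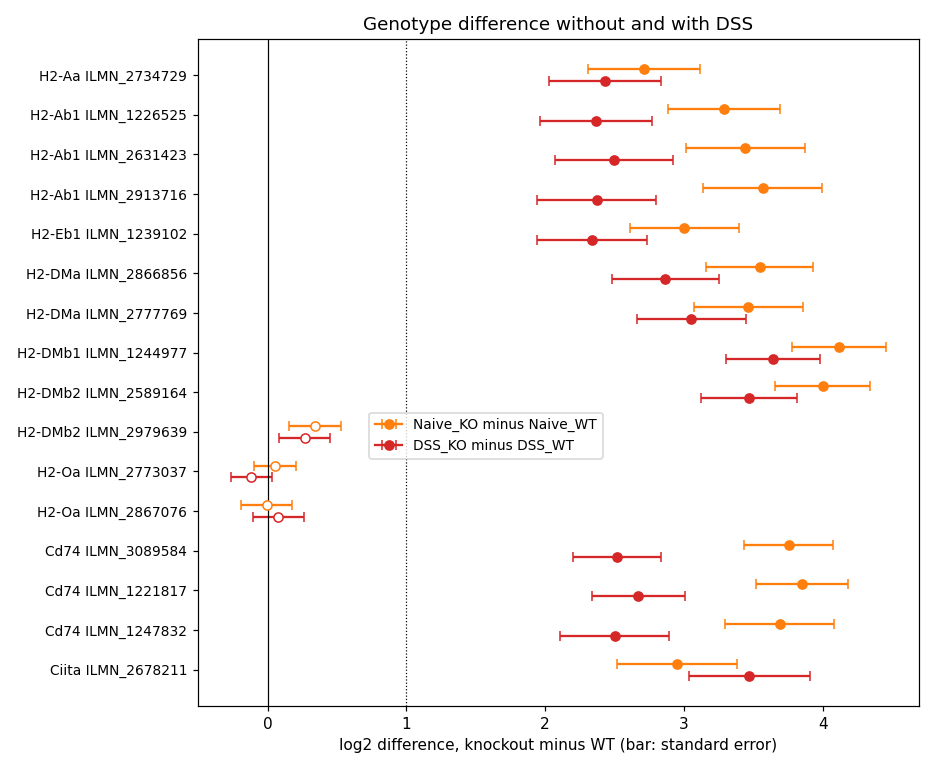
Log2 difference between Mbd2KO and WT for the 16 tested probes, without DSS (orange) and with DSS (red). Bars are standard errors of the limma fit, filled points were called, open points were not, and the dotted line marks a difference of 1. The 13 called probes lie beyond 2 in both treatments, and the dim H2-DMb2 probe and both H2-Oa probes lie near 0.

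The number of calls with DSS changed when single samples were left out, as adjusted p-values crossed 0.01. Without DSS_WT replicate 2 or DSS_KO replicate 5 the number of member probes called fell from 13 to 7, and without DSS_KO replicate 8 to 8. Over the alternatives the difference at H2-Aa ILMN_2734729 was 2.33 to 2.54 and at H2-Eb1 ILMN_1239102 2.19 to 2.54, with limma adjusted p at most 0.0130 and 0.0148. Both H2-DMa probes, H2-DMb1, the bright H2-DMb2 probe, the 2 bright Cd74 probes and Ciita were called with DSS under all 27 alternatives tried. In untreated mice leaving out any 1 sample left 13 called, but a fit to the 2 untreated groups alone called 7, without H2-Aa, the 3 H2-Ab1 probes, H2-Eb1 and Ciita. Without background correction the differences in untreated mice fell to 3.13 at H2-DMb1 ILMN_1244977, 3.02 at H2-DMb2 ILMN_2589164, 2.71 at H2-DMa ILMN_2866856, 2.45 at H2-DMa ILMN_2777769 and 2.86 at Cd74 ILMN_1247832, and all 5 were still called.

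Some class II transcripts were also higher in WT CECs after DSS. Between DSS_WT and Naive_WT, 5 member probes of 3 genes were called higher and 0 lower, where 1.34% of all tested probes were called higher. They were the 3 Cd74 probes (1.98, 2.00 and 2.02, limma adjusted p at most 0.00438), H2-Ab1 at ILMN_1226525 (1.84, adjusted p 0.00928) and H2-DMa at ILMN_2866856 (1.93, adjusted p 0.00514). At an adjusted p under 0.05, 13 member probes were higher, against 5.71% of all tested probes. Among them H2-Aa was at 1.53, H2-Eb1 at 1.68, H2-DMb1 at 1.48 and H2-DMb2 at 1.41. Ciita, for which Naive_WT has only a bound, was not called (adjusted p 0.220). Values of the 2 groups did not overlap at 14 of 16 probes (8.87% of all tested probes did not overlap and were higher).

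Without background correction Cd74 ILMN_1247832 fell to 1.37 and H2-DMa ILMN_2866856 to 1.28, and neither was called. The number of calls in this comparison moved with single samples. It was 2 without DSS_WT replicates 3 or 4 or Naive_WT replicates 9, 10 or 12, it was 3 without DSS_WT replicate 1, and it was 10 or 11 without Naive_KO replicates 13 or 16, which enter only the shared estimate of spread.

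In Mbd2KO CECs no member probe was called between DSS and no DSS by limma. Between DSS_KO and Naive_KO, 0 of 16 were called, where 1.07% of all tested probes were called higher, although all 16 values were above 0 (median 0.85, from 0.18 to 1.38). At an unadjusted p under 0.05 there were 13 of 16, compared with 24.5% of all tested probes in either direction. At an adjusted p under 0.05 there was 1, H2-DMa at ILMN_2777769 (1.34, adjusted p 0.0412), against 4.9% of all tested probes. The groups were separate at 1 probe, H2-Oa ILMN_2867076, against 7.63%. Without Naive_KO replicate 13 the limma count was 5, and with median scaling it was also 5.

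Several class II transcripts were higher in untreated Mbd2KO CECs than in DSS-treated WT CECs. Between Naive_KO and DSS_WT, which shares each group with a comparison above, 9 member probes of 6 genes were called higher and 0 lower, against 0.925% of all tested probes. H2-DMb1 differed by 2.63 (SE 0.34, limma adjusted p 0.000218), H2-DMb2 by 2.59 (adjusted p 0.000267), Ciita by 2.09 (adjusted p 0.00467) and Cd74 by 1.67 to 1.85, and the 2 groups did not overlap at 5 of the 16 probes (9.57% of all tested probes were higher without overlap). H2-Aa (1.18, adjusted p 0.0538) and H2-Eb1 (1.32, adjusted p 0.0301) were not called. Both H2-Oa probes had lower values in Naive_KO than in DSS_WT, by -0.59 (adjusted p 0.0130) and -0.43 (adjusted p 0.115). Over 27 alternatives Ciita ranged from 1.03 to 2.50 and lost its call in 8. The dim Cd74 probe ILMN_1247832 lost its call in 19 and the 2 bright Cd74 probes in 1 each. H2-DMb1 and the bright H2-DMb2 probe kept theirs in all 27. The count of 9 was 2 in a fit to only these 2 groups. It was 4 without any one of DSS_WT replicates 2 and 4 and Naive_KO replicates 13 and 15, and 5 without DSS_WT replicate 1, Naive_WT replicates 9 or 10, or DSS_KO replicates 5, 7 or 8.

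Group means were ordered Naive_WT, DSS_WT, Naive_KO and DSS_KO at 14 of the 16 tested member probes. The neighbours DSS_WT and Naive_KO differed by a call at 9 probes and Naive_WT and DSS_WT at 5, while no call separated Naive_KO and DSS_KO.

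The genotype effect itself did not pass the test for a difference between treatments. The interaction, the difference with DSS minus the difference without DSS, called 0 of 16 member probes by limma, and 0% of all tested probes were called. It was below 0 at 14 of 16 probes, with a median of -0.60. The 3 Cd74 probes, at -1.24, -1.18 and -1.19 (95% intervals -2.19 to -0.29, -2.17 to -0.18 and -2.36 to -0.01), were the 3 with an unadjusted p under 0.05, against 10.7% of all tested probes, and their adjusted p was 0.326 or more. The dim Cd74 probe gave nearly the same value as the 2 near the top of the scale. For Ciita no interaction value is given, since Naive_WT has only a bound.

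Over the 13 probes called by genotype, the Naive_KO samples differed from each other more than those of the other groups, with an SD of 0.74 to 1.23 in Naive_KO, 0.09 to 0.58 in Naive_WT, 0.25 to 0.62 in DSS_WT and 0.14 to 0.58 in DSS_KO. At H2-Oa ILMN_2867076 the SD was larger in DSS_WT (0.38) than in Naive_KO (0.32). Samples 13 and 15 both lay above samples 14 and 16 at 14 of 16 member probes, as they did at 14.5% of all tested probes. For H2-DMb1 they were at 11.68 and 11.13, within the DSS_KO range of 11.17 to 11.87 or just below it, and the other two were at 9.84 and 9.68. Sample 13 exceeded every DSS_KO sample at 4 probes. Even the lowest, sample 16, exceeded every Naive_WT sample at 13 of 16 probes and every DSS_WT sample at 5.

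Within the other groups, DSS_WT replicate 3 was the highest of its group at 15 of 16 tested member probes, Naive_WT replicate 12 the lowest at 11 and DSS_KO replicate 6 the lowest at 13. The gap to the next sample was at times small, and the median standard error over beads was 2.66% to 3.98% of the signal, depending on the probe.

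Markers of leukocytes that carry class II moved with some of these results. Of 23 such genes 22 had a probe and 11 were tested. None of the 11 was called between genotypes, with DSS (median 0.22) or without it (median 0.50), where 1 of 11, Csf1r, had an adjusted p under 0.05 in Naive_KO (0.67, limma adjusted p 0.0486). Between DSS_WT and Naive_WT 9 of 11 were called higher (median 1.51), against 1.34% of all tested probes. Between DSS_KO and Naive_KO 5 of 11 were called higher, against 1.07%. Between Naive_KO and DSS_WT 4 of 11 were called lower and 0 higher (median -1.07, against 0.01 over all tested probes), where 9 class II probes were called higher. The share of all tested probes called lower was not counted. Of the 22 markers with a probe, 8 were detected on all 18 arrays, with Laptm5, Coro1a, Fcer1g, Aif1 and Csf1r among them. Another 6 were detected on 0 arrays. These were Itgax, Itgam, Flt3, Clec9a, Xcr1 and Ms4a1, which mark dendritic cells, myeloid cells and B cells. Ptprc, which encodes CD45, was detected on 3 of 18. T cell markers were tested for 3 of 5 genes, with 0 called in any of the 6 comparisons.

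The summed level of the leukocyte markers was 1970 to 2669 in Naive_WT, 3701 to 6868 in DSS_WT, 2196 to 4234 in Naive_KO and 5388 to 6271 in DSS_KO. Within Naive_KO it was 4234 and 3850 in samples 13 and 15 and 2983 and 2196 in samples 14 and 16, which is the order of their Cd74 and H2-DMb1 levels. Naive_KO 16, at 2196, lay inside the Naive_WT range of leukocyte markers, and its Cd74 level was 12.82, where the highest Naive_WT sample was at 10.18. The other Naive_KO samples lay above that range. DSS_WT 3, at 6868, exceeded every DSS_KO sample in leukocyte markers and was below every DSS_KO sample at 14 of 16 class II probes, with Cd74 at 12.41 against 14.13 or more. The other DSS_WT samples, at 3701 to 5218, lay below every DSS_KO sample in leukocyte markers. The part that leukocytes had in the class II differences was not tested, for genotype, for DSS or for the spread within Naive_KO.

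**Figure D4:**
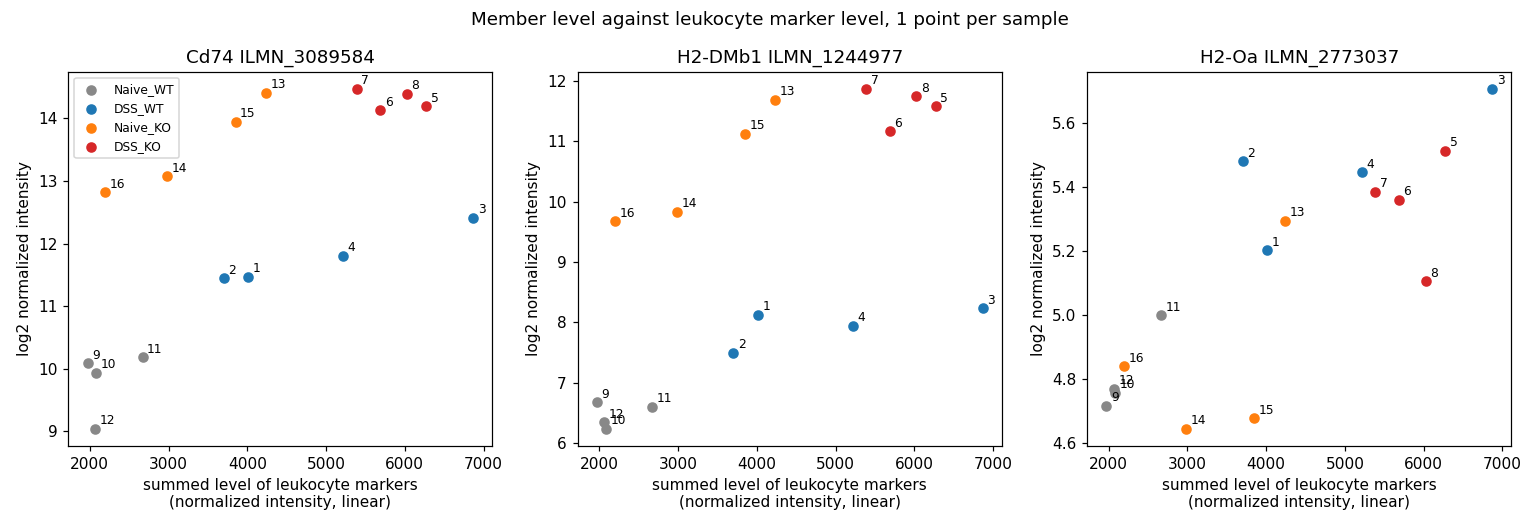
Log2 level of Cd74, H2-DMb1 and H2-Oa (y axes, each with its own range) against the summed leukocyte marker level (x axes, linear intensity) in the 16 samples, numbered as in the labels. Within each treatment Mbd2KO samples lie above WT samples for Cd74 and H2-DMb1 and overlap them for H2-Oa, and most Mbd2KO samples also lie further right than most WT samples of that treatment. The part of leukocytes in the differences was not tested.

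Apart from Ciita itself, no gene of the 2 lists of upstream factors was called between genotypes. Of 7 genes for the factors bound to the X and Y boxes, 6 were tested and 0 called between genotypes. Nfya, a subunit of NF-Y, was at 0.72 (limma adjusted p 0.0249) without DSS and 0.26 (adjusted p 0.404) with it, and Rfx5, the large subunit of RFX, was detected on 0 arrays. Of 8 genes of interferon-gamma signalling to Ciita, all were tested and 0 called. Irf1, an interferon-induced transcription factor, was at 0.55 (limma adjusted p 0.0888) with DSS and 0.83 (adjusted p 0.0174) without DSS, which missed the limit of 0.01. The receptor chains Ifngr1 and Ifngr2 were at -0.10 and 0.09 with DSS (adjusted p 0.791 and 0.802).

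Genes that act on class II after transcription were not called between genotypes either. For antigen and invariant chain processing 6 of 7 genes were tested and 0 called. Ctss, the protease that makes the last cut in the invariant chain, was at 0.62 (limma adjusted p 0.0660) with DSS and -0.53 (adjusted p 0.109) without it. Lgmn, a lysosomal endopeptidase, was the one called between DSS_WT and Naive_WT (1.32, adjusted p 0.00159). Ctsl was detected on 0 arrays. Of March8, Cd83, March1 and H2-Ea, grouped as class II turnover with H2-Ea, the first 2 were tested and 0 called.

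The called members followed nearly the same course over the 16 samples. The brightest probe of each correlated with the mean of the other members at r 0.971 (Ciita) to 0.996 (H2-DMa), and H2-Oa at 0.35. Outside the members, the 8 genes of 15748 with the highest Pearson r with the mean of the member genes were B2m (0.995), LOC641240 (0.995), Art2b (0.978), C2 (0.974), Psmb9 (0.973), Ifi47 (0.971), Psmb8 (0.967) and Parp3 (0.966). These correlations are a description over samples that fall into 4 groups and so share the group differences. B2m, the class I light chain, rose in level over the groups from 13.24 in Naive_WT to 14.51 in DSS_KO, and Psmb8 and Psmb9 encode immunoproteasome subunits. LOC641240, which the probe table describes as resembling a class II beta chain, shares a run of 18 of 50 probe bases with H2-Ab1 ILMN_1226525, so it may read the same transcript.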

How the data were processed

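Total RNA of sorted colon epithelial cells was hybridised to Illumina MouseWG-6 BeadChips (18 arrays). The deposited values are mean bead intensities per probe on a linear scale, exported by the authors from GenomeStudio without normalization or background subtraction, together with a deposited detection p-value. The bead standard error is deposited as another column. The submitters' processing notes name lumi and limma, without versions; a table normalized by the authors was not analysed here. Genome coordinates are as deposited and their build is not given in the sources used here.

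Background was removed by means of 936 negative control probes, followed by quantile normalization and a log2 transform (neqc, limma 3.58.1, R 4.3.3, offset 16), which shrinks differences near background. Arrays 4R and 5R, whose letter the labels do not explain, were averaged with 4 and 5. A limma model of 4 group means was fitted across the 16 samples (lmFit, eBayes, two-sided, 12 residual and 4.71 prior degrees of freedom) for 6 contrasts. Thresholds were those of the study's methods. The fit was tested on simulated data. The number of arrays limits precision, and p-values measure only the spread between these samples. Symbols are those of the file, updated through RefSeq identifiers (GRCm38.p6) for the pathway and marker genes. Every probe of the 10 members is named, with fixed pathway and marker lists and the 8 genes most alike in pattern. The members and lists were chosen with earlier results of these data known. The values of 1 gene of the pathway lists are not reported here.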

Additional observations from a re-analysis of the deposited data

Results flagged for a closer look

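In 64 checks of 4 samples each (16 probes in 4 groups), 2 samples stood apart from the rest of their group, and chance flags about 1 in 20 such checks. The dim H2-DMb2 probe ILMN_2979639 was at 5.38 in DSS_KO replicate 6, where the other 3 samples were at 5.06 to 5.10, all near background. Cd74 at ILMN_1247832 was at 9.49 in DSS_WT replicate 3, where the others were at 8.45 to 8.63. That sample also held the highest summed leukocyte marker level, 6868, and their part in its Cd74 level was not tested.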

How the results depend on the processing

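Values were recomputed under up to 27 alternatives, 16 of which left out 1 sample. The interaction has no fit to only the compared groups, and a stricter filter removed H2-DMb2 ILMN_2979639 and H2-Oa ILMN_2867076. The number of member probes called moved most in the 2 comparisons across DSS_WT. Between DSS_WT and Naive_WT it was 5 as reported, 2 without background correction, without the filter on dim probes and with an intensity trend and robust prior, 3 with offset 50, 12 with median scaling, 11 with 18 arrays as separate replicates and in a fit to only the compared groups, and 10 with array weights. Between Naive_KO and DSS_WT it was 9 as reported, 4 without background correction or without the filter, 5 with median scaling, array weights or the trend, 2 in a fit to only the compared groups and 11 with 18 arrays as separate replicates. By genotype it was 8 with DSS without the filter and 7 without DSS in a fit to only the compared groups, and between DSS_KO and Naive_KO it was 5 with median scaling. Median scaling moved the median of all tested probes by 0.24 and 0.23 in the comparisons of DSS with no DSS. Leaving out 1 sample gave 7 to 13 with DSS and 13 to 13 without DSS by genotype, 2 to 11 between DSS_WT and Naive_WT, 0 to 5 between DSS_KO and Naive_KO, and 4 to 12 between Naive_KO and DSS_WT. The interaction called 0 in each setting run.

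No genotype difference of the 13 called probes changed direction. Directions turned for values that were not called. Without background correction the interaction was 0.19 in place of -0.41 for H2-DMa ILMN_2777769 and 0.07 in place of -0.47 for H2-DMb1 ILMN_1244977. With array weights, H2-DMb2 ILMN_2979639 was at -0.04 between Naive_KO and DSS_WT, and H2-Oa ILMN_2867076 at 0.13 between Naive_KO and Naive_WT and -0.05 in the interaction. With offset 50, H2-Oa ILMN_2867076 was at 0 between Naive_KO and Naive_WT. Leaving out 1 sample gave an interaction of -0.68 to 0.13 for H2-Aa ILMN_2734729 (-0.28 with all samples), of -0.23 to 0.07 for H2-DMb2 ILMN_2979639 and of -0.07 to 0.21 for H2-Oa ILMN_2867076. It gave -0.06 to 0.24 for H2-DMb2 ILMN_2979639 between Naive_KO and DSS_WT, -0.05 to 0.21 for H2-Oa ILMN_2867076 between DSS_KO and DSS_WT, and, between Naive_KO and Naive_WT, -0.11 to 0.14 for H2-Oa ILMN_2867076 and -0.09 to 0.13 for H2-Oa ILMN_2773037. The cause of these changes was not tested. No paired analysis was possible because the labels give no replicate number to more than 1 group. The signal of H2-Ob, H2-Oa and the dim H2-DMb2 probe, close to background, limits what can be said of them.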
